A study of Mus musculus with 20 samples.

Results

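The genes described here are 56 genes of the motile cilium, taken as a list of gene symbols and looked up in the 3 tables of raw counts. The list was chosen with earlier results of these data known. It holds 7 genes that the study lists as raised in these same embryos, so it is not independent of the data. They fall into 10 structural classes, which are 3 regulators, 6 outer dynein arm genes, 10 inner dynein arm genes, 4 docking complex genes, 4 genes of the axonemal ruler and the nexin-dynein regulatory complex, 4 radial spoke genes, 6 central pair genes, 7 tektins and other doublet inner proteins, 4 dynein assembly factors and 8 other axonemal or cilia-linked genes. All 56 were among the 22729 genes counted in embryonic day 8.5 (E8.5) embryos, 45 among the 20159 genes counted in mouse embryonic stem cells (mESCs) and 47 among the 20142 genes counted in day 3 embryoid bodies (EBs), which are aggregates of mESCs left to differentiate.

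RNA-seq was made from 20 libraries. Of these, 12 came from single C57BL/6 embryos of both genotypes, 6 Zmym2+/+ and 6 Zmym2-/- at E8.5, and in each genotype replicates 1 to 3 were male and replicates 4 to 6 female. The knockout allele is a CRISPR frameshift in the first coding exon, and the embryos were taken whole. According to the study, those used were chosen for a normal outward appearance. The other 8 libraries were V6.5 mESCs (C57BL/6x129/SvJae) and day 3 EBs, each with 2 control lines that received a non-targeting guide and 2 Zmym2-/- lines. The lines are clones, so a line and its genotype cannot be told apart beyond the 2 lines of each kind.

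A motile cilium beats because dynein motors attached to its microtubule doublets slide neighbouring doublets past each other. Outer and inner dynein arms supply the force, a docking complex and a molecular ruler place the arms, radial spokes and the central pair coordinate them, tektins and other inner proteins brace the doublets, and cytoplasmic assembly factors build the arms before transport. FOXJ1 is the leading transcription factor of the programme and RFX factors bind X-box motifs in the promoters of cilia genes. In the mouse embryo the best known early motile cilia are those of the node, whose beat drives the leftward flow that sets left-right asymmetry, and many of the same genes serve the sperm tail.

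Because RFX factors read the X-box, the promoters of the listed genes were searched for its half-site, GTTGCC or its reverse complement GGCAAC. RefSeq promoters (GRCm38.p6, 250 bases before to 50 bases after each start) matched 47 of the 56 genes and gave 52 promoters. The half-site was present in 44.2% of these 52 promoters, against 12.5% of all 32817 promoters of the same length. A pair of half-sites, GTTGCC then GGCAAC spaced by 0 to 3 bases, was present only in 1110017D15Rik among the matched genes (1.92% of their promoters against 0.162% of all promoters). The forkhead letters GTAAACA were in 5.77% of the matched promoters (3.65% of all), the E-box CACGTG in 5.77% (7.15% of all) and the E2F letters GCGGGAA in 0 of 52 (4.6% of all), each searched on both strands. A match is a description of letters and not evidence that a factor binds. The next 6 promoters are printed 5′ to 3′ on the strand of the gene, with half-sites in capitals. The first 5 were chosen because they hold a half-site close to the start and span several structural classes. Ccdc113 and Drc1 belong to the same class. The last was chosen because Iqub was the member called in embryos. They lie at chr4:41507715-41508014 (minus strand, 1110017D15Rik), chr8:95533850-95534149 (plus, Ccdc113), chr5:30281143-30281442 (plus, Drc1), chr8:110266727-110267026 (plus, Hydin), chr10:10472350-10472649 (minus, Adgb) and chr6:24515018-24515317 (minus, Iqub).
1110017D15Rik: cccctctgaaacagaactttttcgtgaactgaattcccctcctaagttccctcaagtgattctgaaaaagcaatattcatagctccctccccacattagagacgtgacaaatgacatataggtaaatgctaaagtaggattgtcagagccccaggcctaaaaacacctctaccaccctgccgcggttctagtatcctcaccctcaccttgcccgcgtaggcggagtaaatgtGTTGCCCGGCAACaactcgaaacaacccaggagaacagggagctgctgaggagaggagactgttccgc
Ccdc113: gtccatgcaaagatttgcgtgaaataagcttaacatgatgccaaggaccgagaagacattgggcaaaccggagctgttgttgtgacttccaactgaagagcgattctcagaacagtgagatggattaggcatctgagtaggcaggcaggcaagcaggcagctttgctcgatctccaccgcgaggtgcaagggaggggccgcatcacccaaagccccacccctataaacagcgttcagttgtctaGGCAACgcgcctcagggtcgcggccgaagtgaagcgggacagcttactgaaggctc
Drc1: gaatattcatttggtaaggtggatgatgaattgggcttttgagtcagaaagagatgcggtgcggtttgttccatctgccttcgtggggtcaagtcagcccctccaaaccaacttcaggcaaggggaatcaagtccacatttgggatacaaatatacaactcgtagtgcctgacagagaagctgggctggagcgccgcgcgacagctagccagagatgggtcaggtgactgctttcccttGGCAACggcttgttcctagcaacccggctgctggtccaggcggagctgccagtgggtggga
Hydin: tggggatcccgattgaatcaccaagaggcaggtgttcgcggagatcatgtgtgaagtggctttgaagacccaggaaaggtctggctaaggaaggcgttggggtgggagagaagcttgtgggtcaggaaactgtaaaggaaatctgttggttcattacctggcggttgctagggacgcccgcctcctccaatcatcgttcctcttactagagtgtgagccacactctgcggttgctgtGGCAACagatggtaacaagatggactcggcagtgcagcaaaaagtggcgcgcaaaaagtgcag
Adgb: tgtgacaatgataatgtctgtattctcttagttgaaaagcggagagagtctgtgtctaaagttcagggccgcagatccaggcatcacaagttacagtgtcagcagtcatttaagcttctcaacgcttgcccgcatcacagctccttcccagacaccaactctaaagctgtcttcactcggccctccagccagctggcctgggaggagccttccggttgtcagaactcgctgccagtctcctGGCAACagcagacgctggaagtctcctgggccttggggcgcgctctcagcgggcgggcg
Iqub: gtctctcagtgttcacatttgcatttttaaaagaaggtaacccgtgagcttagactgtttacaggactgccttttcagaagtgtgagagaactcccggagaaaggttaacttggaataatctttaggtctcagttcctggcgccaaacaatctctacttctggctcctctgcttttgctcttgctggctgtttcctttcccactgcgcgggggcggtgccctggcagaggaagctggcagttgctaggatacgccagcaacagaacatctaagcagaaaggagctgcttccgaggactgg
Counted from the start, the half-site began at base -6 in Ccdc113, -9 in Adgb, -11 in Drc1 and -13 in Hydin, and the paired sites of 1110017D15Rik began at -18. The other annotated promoter of 1110017D15Rik, at chr4:41517284-41517583 and not printed, held no half-site. The Iqub promoter held no half-site and held 1 forkhead match at -195.

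Library totals ranged from 38142819 to 64057608 counts in embryos, from 32016880 to 47177872 in mESCs and from 33183937 to 50937945 in EBs. Levels are given as CPM, a gene's counts scaled to a common library size after the library totals were adjusted by TMM, and a gene is called where its adjusted p over all genes counted at that stage (edgeR quasi-likelihood test, Benjamini-Hochberg adjustment) is under 0.05. The targeted gene itself, Zmym2, stood at 50.3 to 125 CPM in Zmym2+/+ and 25.4 to 67.1 CPM in Zmym2-/- embryos (log2 fold change -0.91, SE 0.25, adjusted p = 0.226), so the groups overlapped and it was not called. It was called lower in Zmym2-/- mESCs (66.8 to 70.8 against 27.0 to 29.0 CPM, a log2 fold change of -1.3 with an adjusted p of 3.07e-06) and EBs (92.8 to 93.1 against 30.9 to 32.4 CPM, log2 fold change -1.55, adjusted p = 9.70e-08). A frameshift need not remove the transcript, so the RNA level is a partial check of genotype. Embryos carry an H or a J at the start of the sample name, whose meaning the labels do not give, and the 2 letters split unevenly, with 2 J embryos among the Zmym2+/+ and 4 among the Zmym2-/-. No 2 libraries held identical values.

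In E8.5 embryos, motile cilia genes were higher in Zmym2-/- than in Zmym2+/+ by their median, and most of that height came from 2 Zmym2-/- embryos, replicates 5 and 6. The log2 fold change was positive for 54 of 56 genes and its median was 1.58, against 52.3% positive and a median of 0.02 over all genes. After adjustment over all genes 1 member was called higher, Iqub, and 0 were called lower, where 0.51% of all genes were called higher and 0.0132% lower. At an unadjusted p under 0.05, 32 members were higher and 0 lower, against 5.67% and 6.38% of all genes. DESeq2 on the same counts called 17 members higher and 0 lower, against 1.47% of all genes called higher. The members that the study lists as raised in these embryos are all among the 17. The study also used DESeq2, so those calls are not independent of how the list was chosen. The median was 0.84 without Zmym2-/- embryo 6. Without embryos 5 and 6 together it was 0.23, with 33 of 55 tested genes positive (50.4% of all genes) and 1 called higher, again Iqub, and 0 lower (0.337% and 0.00443% of all genes).

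Taken embryo by embryo, the median member lay at log2 differences of -0.33 to 0.40 from the Zmym2+/+ mean in the 6 Zmym2+/+ embryos. It lay at 0.41, 0.44, 0.05 and 0.06 in Zmym2-/- embryos 1 to 4, at 2.17 in embryo 5 and at 3.17 in embryo 6. Of the 56 genes, 41 exceeded a log2 difference of 1 in embryo 5 and 49 did so in embryo 6, compared with at most 9 in any Zmym2+/+ embryo and 5 to 16 in the other Zmym2-/- embryos. The share of all genes over that difference was not computed. Embryos 5 and 6 were the 2 highest of all 12 for 42 of 56 members, an arrangement that 5.77% of all genes showed. Both are female, embryo 5 carries the letter H and embryo 6 the letter J, and female embryo 4 resembled the males. The Zmym2-/- males, embryos 1 to 3, all carry the letter J. They also share a number in the sample name that no Zmym2+/+ embryo carries, and the labels do not explain that number. These 2 embryos are singled out here because of their values, and the p-values therefore say little about them.

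**Figure D1:**
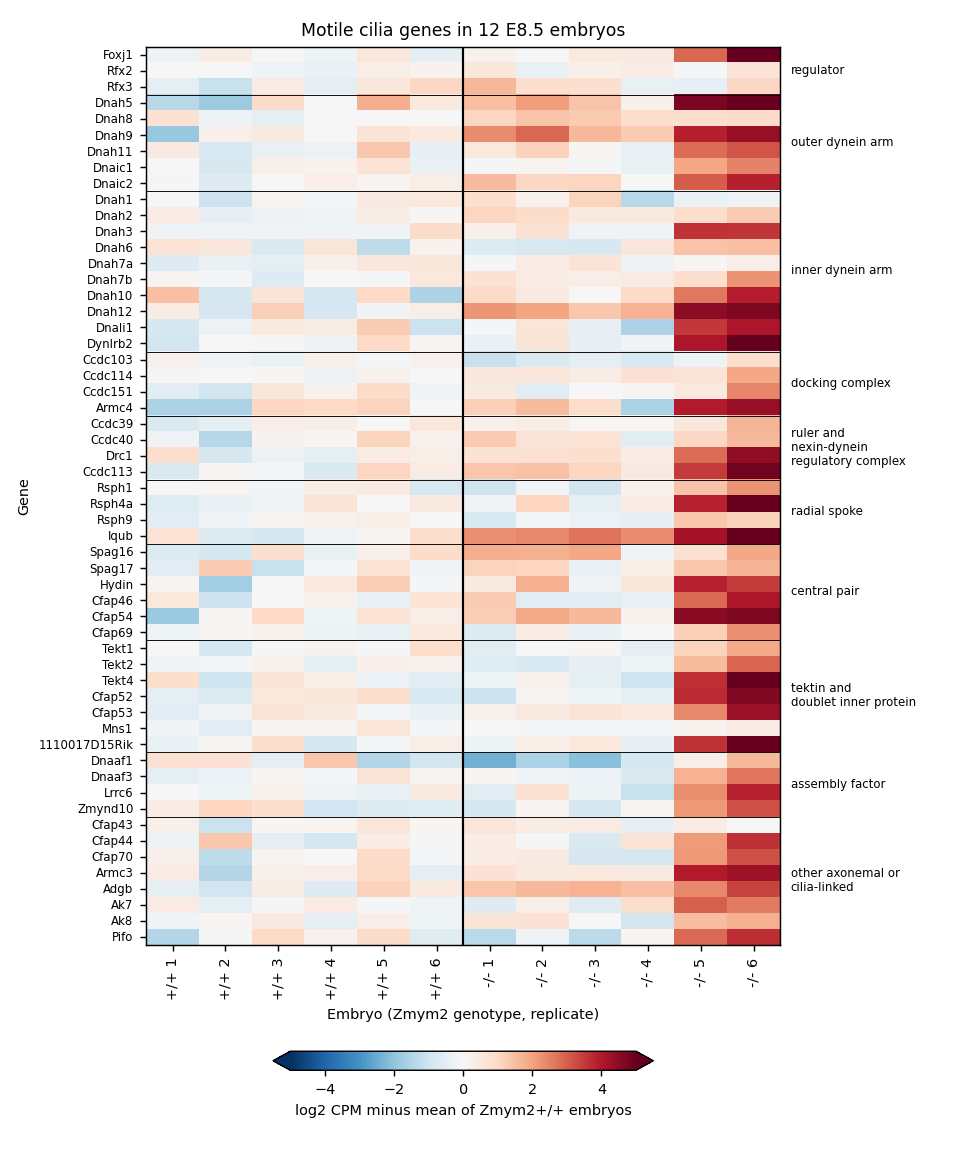
Level of each of the 56 motile cilia genes (rows, grouped by structural class) in each of the 12 E8.5 embryos (columns, 6 Zmym2+/+ then 6 Zmym2-/-), as the log2 CPM minus the mean of the Zmym2+/+ embryos, with colours saturated at both ends of the bar. Zmym2-/- embryos 5 and 6 are red in nearly every class, with medians of 2.17 and 3.17, while a few rows such as Iqub, Dnah8 and Adgb are red across all 6 Zmym2-/- columns.

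**Figure D2:**
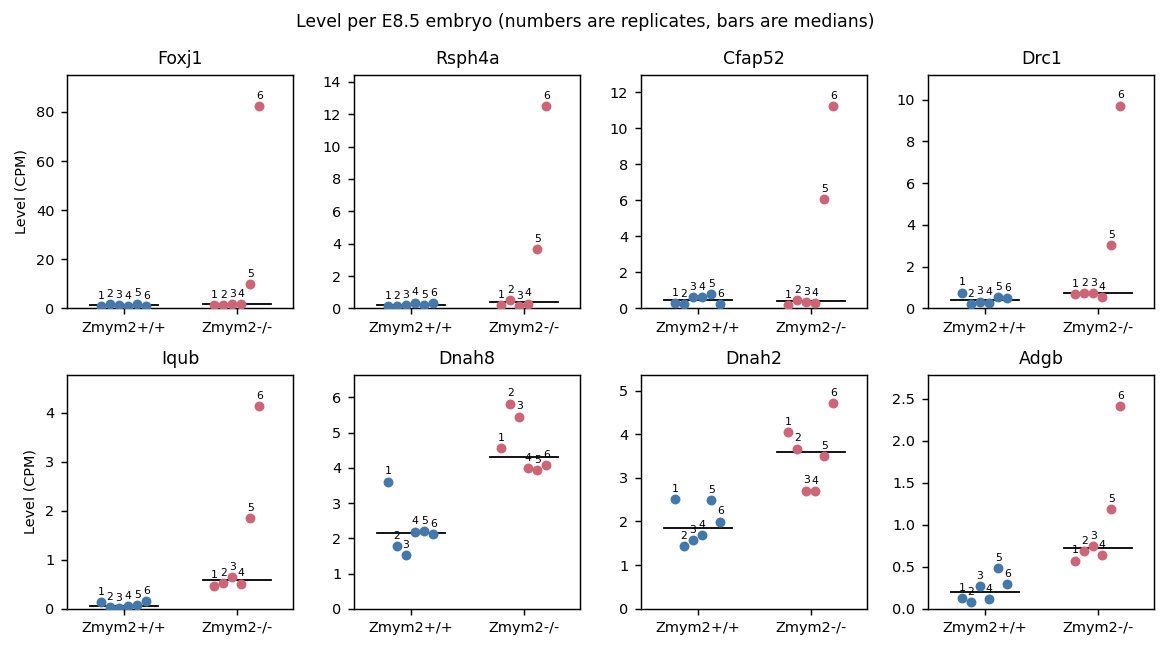
Level in CPM (vertical axes, each from 0) of 8 genes in single E8.5 embryos, with replicate numbers beside the points and bars at the group medians. In the upper row (Foxj1, Rsph4a, Cfap52, Drc1) only Zmym2-/- embryos 5 and 6 stand far above the rest, and in the lower row (Iqub, Dnah8, Dnah2, Adgb) the lowest Zmym2-/- embryo exceeds the highest Zmym2+/+ embryo.

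Among the regulators, Foxj1, the transcription factor that switches on motile cilium genes (chr11:116330704-116335399, GRCm38), had a lowest, median and highest level of 0.914, 1.21 and 1.94 CPM in Zmym2+/+ embryos. In Zmym2-/- embryos 1 to 4 it lay between 1.33 and 1.83 CPM, with 9.81 CPM in embryo 5 and 82.5 CPM in embryo 6. The 4 first embryos thus sat inside the Zmym2+/+ range and the other 2 far above it. The fold change was 3.62 on the log2 scale (SE 1.04, adjusted p = 0.258), DESeq2 called it at an adjusted p of 0.0168, and without embryos 5 and 6 it was 0.27. The study lists Foxj1 among genes raised from their own promoter in these same embryos, so its direction is not independent evidence, and the same holds for Adgb, Armc3 and 1110017D15Rik and for Iqub, Dnah5 and Dnah12, listed as fusions with L1MdT transposons. The X-box factors moved less. Rfx2 stood at 2.02 to 3.27 CPM in Zmym2+/+ and 2.00 to 4.05 CPM in Zmym2-/- embryos (log2 fold change 0.25, SE 0.23, adjusted p = 0.678). Rfx3 stood at 6.44 to 28.9 and 10.4 to 43.9 CPM (0.60, SE 0.41, adjusted p = 0.574). By the letter in the sample name, its Zmym2+/+ levels overlapped, at 6.44 to 20.9 CPM in H and 18.6 to 28.9 CPM in J embryos. Its Zmym2-/- levels did not overlap, at 10.4 to 10.7 CPM in H and 25.0 to 43.9 CPM in J embryos. The log2 fold change between genotypes was -0.20 in H embryos alone and 0.38 in J embryos alone.

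The outer dynein arm genes held 2 of the 7 members whose groups did not overlap, and their median log2 fold change was 2.06. Dnah8, an outer arm heavy chain best known from the sperm tail (chr17:30624354-30877365), had a lowest, median and highest level of 1.52, 2.16 and 3.61 CPM in Zmym2+/+ and of 3.94, 4.32 and 5.82 CPM in Zmym2-/- embryos. It was highest in embryos 2 and 3 and not in 5 and 6, and the lowest Zmym2-/- embryo exceeded the highest Zmym2+/+ embryo. Its log2 fold change was 1.05 (SE 0.23, adjusted p = 0.0784) and 1.15 without embryos 5 and 6, neither of them called. Dnah9, the heavy chain of the distal outer arm, ran from 0 to 0.194 CPM in Zmym2+/+ embryos and between 0.318 and 2.97 CPM in Zmym2-/- embryos (3.25, SE 0.67, adjusted p = 0.0531). Embryos 5 and 6 again topped that range, at 2.16 and 2.97 CPM, but embryos 1 to 4 also exceeded every Zmym2+/+ embryo, giving 2.23 without the 2 highest. Dnah5, the other principal ciliary heavy chain of the outer arm, overlapped between groups (0.0275 to 0.800 against 0.244 to 8.08 CPM; 3.20, SE 0.94, adjusted p = 0.270), with 6.12 and 8.08 CPM in embryos 5 and 6. Dnah11 and the intermediate chains Dnaic1 and Dnaic2 had log2 fold changes of 1.67, 1.14 and 2.45, none of them called.

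The inner dynein arm genes had a median of 1.57, with a wide spread from 0.16 for Dnah7a to 3.92 for Dnah12. Dnah12, a single-headed inner arm heavy chain (chr14:26693274-26891703), ran from 0 to 0.124 CPM in Zmym2+/+ embryos and between 0.143 and 1.77 CPM in Zmym2-/- embryos, without overlap (3.92, SE 0.88, adjusted p = 0.0840). The lowest Zmym2-/- value was a small step above the highest Zmym2+/+ value, and embryos 5 and 6 held 1.54 and 1.77 CPM. Dnah2, an inner arm heavy chain named here after its values were seen, had a lowest, median and highest level of 1.43, 1.85 and 2.51 CPM against 2.69, 3.58 and 4.71 CPM (0.87, SE 0.23, adjusted p = 0.194; 0.75 without embryos 5 and 6). Its Zmym2-/- embryos formed a compact group in which embryos 5 and 6, at 3.49 and 4.71 CPM, did not stand apart. Dnah3 was near the limit of detection, with 3 counts in all over the 6 Zmym2+/+ libraries and 57 over the 6 Zmym2-/- libraries, a ratio of 14.9 after scaling to library totals with a 95% interval of 4.84 to 74.3 for counting error only. Nearly all of its reads came from embryos 5 and 6 (0.520 and 0.498 CPM). Dnah7a and Dnah7b are near-identical copies, so the split of reads between them (0.16 and 0.99 on the log2 scale) is uncertain. Dynlrb2, a roadblock light chain, and Dnali1, an inner arm light chain, rested on embryos 5 and 6: their log2 fold changes of 3.28 and 2.57 became -0.13 and -0.50 without them.

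In the docking complex, which anchors the outer arms, Ccdc114 did not overlap between genotypes. It had a lowest, median and highest level of 1.80, 2.25 and 2.57 CPM in Zmym2+/+ and of 2.9, 3.44 and 8.56 CPM in Zmym2-/- embryos (0.91, SE 0.28, adjusted p = 0.285). Embryo 6 alone gave the 8.56 CPM, the other 5 lay at or below 3.67 CPM, and the fold change was 0.55 without embryos 5 and 6. Ccdc103, which joins dynein arms to the doublet, was 1 of 2 members with a negative value (-0.26, SE 0.34, adjusted p = 0.792). The ruler pair Ccdc39 and Ccdc40 had log2 fold changes of 0.58 and 0.76, and Drc1 of the nexin-dynein regulatory complex 2.53, with 3.05 and 9.71 CPM in embryos 5 and 6 against at most 0.759 CPM in any other embryo. Ccdc113 was the ruler-class member with the smallest p (0 to 0.0969 against 0.0489 to 1.78 CPM; 3.77, SE 1.01, adjusted p = 0.200). None of these passed the adjusted threshold.

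Iqub was the member that was called. It encodes a protein with an IQ motif and a ubiquitin-like domain that is placed with the radial spokes here, and lies at chr6:24444865-24515067 on the minus strand with no exon shared with another annotated gene. Its lowest, median and highest levels were 0.0206, 0.0641 and 0.155 CPM in Zmym2+/+ and 0.473, 0.585 and 4.14 CPM in Zmym2-/- embryos. Embryos 1 to 4 kept within 0.473 to 0.653 CPM, all above every Zmym2+/+ embryo, with 1.86 and 4.14 CPM in embryos 5 and 6. The log2 fold change was 4.06 (SE 0.71, adjusted p = 0.0177), and 2.73 (SE 0.48, adjusted p = 0.0390) without the 2 highest embryos. The call was lost when Zmym2+/+ embryo 3 or 4 was left out (adjusted p = 0.0505 and 0.0569). The spoke head genes behaved otherwise. Rsph4a reached 3.64 and 12.5 CPM in embryos 5 and 6 and lay at or under 0.500 CPM in the other 10 (3.64, SE 1.06, adjusted p = 0.267; 0.28 without those 2 embryos). Rsph1 and Rsph9 had log2 fold changes of 0.76 and 0.37.

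The central pair genes had a median of 1.88. Cfap54, a large protein of the central apparatus and the class member with the smallest p, ran from 0 to 0.247 CPM in Zmym2+/+ embryos and between 0.122 and 3.62 CPM in Zmym2-/- embryos (3.35, SE 0.89, adjusted p = 0.194). Embryos 5 and 6 gave 3.22 and 3.62 CPM, and the others at most 0.500 CPM. Hydin, which builds a projection of the central pair, stood at 3.22 and 2.51 CPM in embryos 5 and 6 and at 0.159 to 0.741 CPM in the other Zmym2-/- embryos (2.39, SE 0.78, adjusted p = 0.308). Spag16, another central pair protein, followed the letter in the sample name as well as genotype. In H embryos it lay at 1.43 to 3.20 CPM in Zmym2+/+ and 2.35 to 4.63 CPM in Zmym2-/-, and in J embryos at 4.67 to 5.13 CPM and 9.37 to 10.4 CPM. Within J the genotypes did not overlap, within H they did, and the overall log2 fold change was 1.36 (SE 0.41, adjusted p = 0.286).

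Tektins and doublet inner proteins had the highest class median, 2.57, and a low one without embryos 5 and 6, -0.32. Cfap52, a doublet inner protein, stood at 6.07 and 11.2 CPM in embryos 5 and 6 and at 0.186 to 0.775 CPM in the other 10 embryos. Cfap53, needed for left-right asymmetry, and 1110017D15Rik, with paired X-box half-sites in 1 of its 2 annotated promoters, had log2 fold changes of 2.57 (SE 0.80, adjusted p = 0.297) and 3.37 (SE 1.07, adjusted p = 0.305), with 3.29 and 3.82 CPM in embryo 6. Without embryos 5 and 6 their values were 0.47 and -0.03. Mns1, the member with the highest level per length in Zmym2+/+ embryos (mean 12.1 RPKM, a read count scaled by gene length and library size), differed by 0.02 on the log2 scale (SE 0.17), with 43.6 to 98.6 CPM in Zmym2+/+ and 59.8 to 85.5 CPM in Zmym2-/- embryos. It shares 2842 exonic bases with Tex9 on the other strand.

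The assembly factors had a median of 1.22, and of -0.40 without embryos 5 and 6. Lrrc6 ran from 0.0727 to 0.155 CPM in Zmym2+/+ embryos and between 0.0244 and 1.96 CPM in Zmym2-/- embryos (2.22, SE 0.88, adjusted p = 0.379). Dnaaf1 was the second member with a negative value (-0.43, SE 0.73, adjusted p = 0.851). It lay at 0.158 to 0.538 CPM in Zmym2-/- embryos 1 to 4 and at 1.29 and 3.17 CPM in embryos 5 and 6, against 0.339 to 2.63 CPM in Zmym2+/+ embryos. Among the other genes, Adgb, a globin with a calpain-like domain that is active in the male germ line, did not overlap: its lowest, median and highest levels were 0.0825, 0.199 and 0.485 CPM against 0.573, 0.719 and 2.42 CPM (2.16, SE 0.50, adjusted p = 0.101; 1.5 without embryos 5 and 6). Armc3, an armadillo repeat protein, lay at 0.220 to 0.272 CPM in Zmym2-/- embryos 1 to 4, inside the Zmym2+/+ range of 0.0275 to 0.339 CPM, and at 2.9 and 3.47 CPM in embryos 5 and 6 (2.79, SE 0.86, adjusted p = 0.294).

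Across the classes, few members separated the genotypes in full. The 7 members without overlap were Dnah8, Dnah9, Dnah2, Dnah12, Ccdc114, Iqub and Adgb, compared with 1.03% of all genes with all Zmym2-/- above all Zmym2+/+ embryos. Without embryos 5 and 6 the log2 fold change was lower for Dnah9 (2.23 from 3.25), Dnah12 (2.26 from 3.92), Iqub (2.73 from 4.06), Ccdc114 (0.55 from 0.91), Adgb (1.5 from 2.16) and Dnah2 (0.75 from 0.87), and for Dnah8 it was 1.15 from 1.05. All 7 had a matched promoter, and among them the X-box half-site was found in that of Adgb alone. It was found for 46.8% of the 47 matched members and 14.1% of all genes. The study lists Iqub and Dnah12 as fusions with L1MdT transposons, so their raised transcripts need not start at the annotated promoter. Members over 2-fold higher numbered 36 with all embryos (6.41% of all genes) and 10 without embryos 5 and 6. The share of all genes was not computed for the second count. Class medians without those embryos were 1.05 for the outer arms, 0.65 for the central pair, 0.55 for the ruler class, 0.36 for the inner arms, 0.27 for the regulators, 0.22 for the docking complex, 0.15 for the other genes, -0.07 for the radial spokes, -0.32 for the tektin class and -0.40 for the assembly factors.

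**Figure D3:**
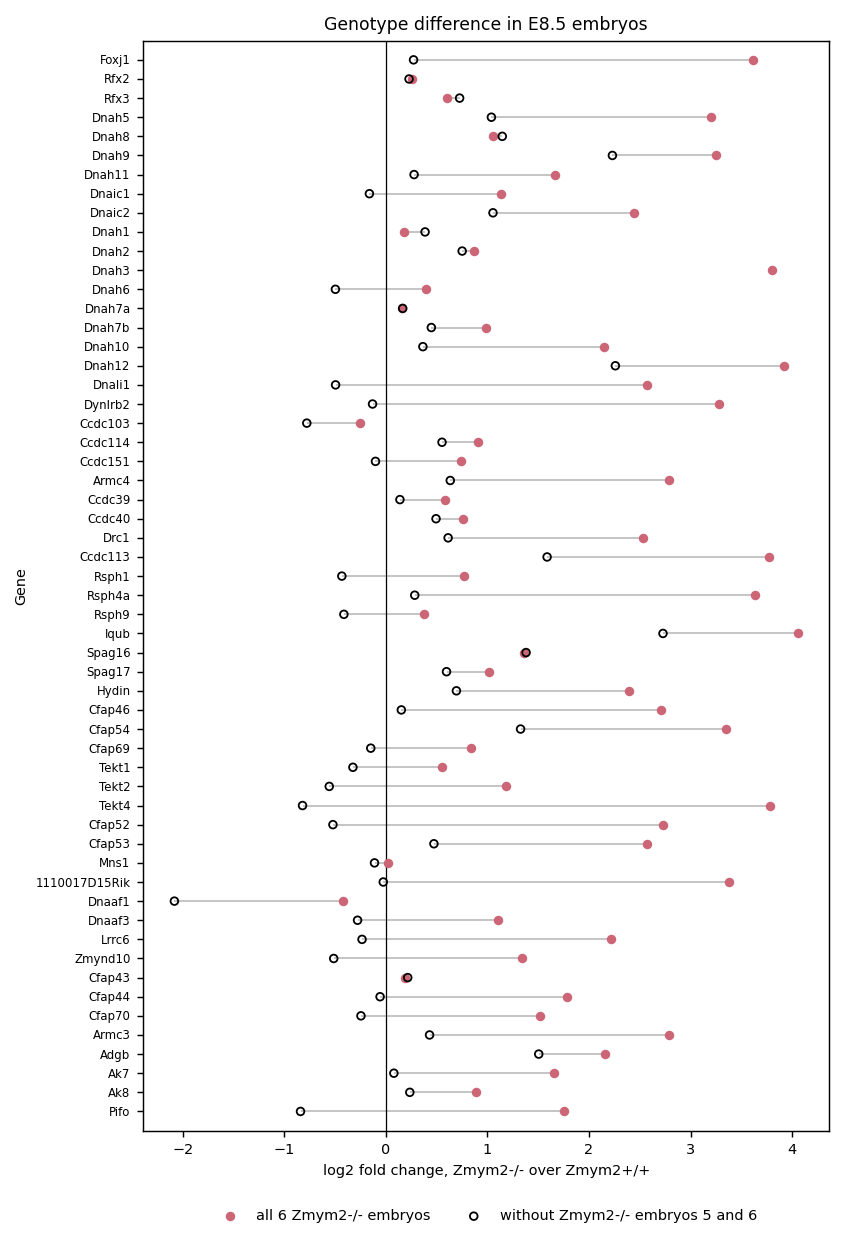
Fitted log2 fold change of each member between Zmym2-/- and Zmym2+/+ E8.5 embryos (horizontal axis), with all 6 Zmym2-/- embryos (filled) and without Zmym2-/- embryos 5 and 6 (open), joined by a line. Most members move toward or past 0 when the 2 embryos are left out (Foxj1 from 3.62 to 0.27), while Dnah8 and Spag16 hardly move and Iqub stays at 2.73. Dnah3 had too few counts to be fitted without them.

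Other genes differed in the same 2 embryos. Of 101 further motile cilia genes 86 were counted in embryos, 0 were called, and their median log2 difference from Zmym2+/+ was 1.35 in embryo 5 and 2.29 in embryo 6, against -0.10 to 0.18 in the other Zmym2-/- embryos. The 49 primary cilium and transport genes were flat, with a summed level of 900 to 1075 CPM in Zmym2+/+ and 900 to 1073 CPM in Zmym2-/- embryos. Of 14 node and notochord genes 13 were counted, with medians of 1.49 and 1.66 in embryos 5 and 6 and summed levels of 261 and 495 CPM against 72.8 to 226 CPM in Zmym2+/+ embryos. Embryos 5 and 6 were the 2 highest for 9 of the 13, against 5.77% of all genes. Within that list Noto, a node transcription factor, stood at 16.4 and 33.4 CPM (at most 2.94 CPM elsewhere), and T, or brachyury, at 102 and 231 CPM (at most 62.9 CPM elsewhere). The cilia channel gene Pkd1l1 stood at 6.34 and 17.8 CPM, against at most 2.25 CPM in the other 10 embryos. The 6 early differentiation genes, T among them, had medians of 1.62 and 2.61 in embryos 5 and 6. Those medians were at most 0.58 in the other Zmym2-/- embryos, and 0.95 in Zmym2+/+ embryo 5. The 7 floor plate genes had medians of -0.62 and -1.08 in embryos 5 and 6, and -1.04 in Zmym2-/- embryo 4. Their summed levels did not follow those medians, at 99.8 and 162 CPM in embryos 5 and 6. The sums ran from 61.4 to 144 CPM in Zmym2+/+ embryos and from 57.2 to 173 CPM in Zmym2-/- embryos. The part of node cells in these values was not tested, and in whole embryos more cells of a type and more RNA per cell cannot be told apart.

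Neural plate and cardiac genes had low medians in those embryos, and somite genes did not. The 6 neural plate genes had medians of -2.41 and -3.05, where Zmym2+/+ embryo 2 lay at -1.61. Their summed levels were 47.0 and 46.4 CPM in embryos 5 and 6, inside the Zmym2+/+ range of 41.5 to 188 CPM. Within that list Pax6 stood at 1.09 and 0.257 CPM against 8.16 CPM or more elsewhere. The 5 cardiac genes had medians of -1.27 and -3.87, where Zmym2+/+ embryo 2 lay at -1.03. The 5 somite genes had medians of -0.51 and 0.31, and Zmym2-/- embryo 4 was the lowest for them at -3.09. The 5 primitive erythroid genes had medians of -4.46 and -1.65, but Zmym2+/+ embryo 5 was as low (-5.0). The pluripotency gene Pou5f1 stood at 136 and 364 CPM against at most 61.3 CPM elsewhere. The 6 genes of the pluripotent list had medians of 1.16 and 1.48 in embryos 5 and 6, with Zmym2-/- embryo 4 at 1.21 and Zmym2+/+ embryo 1 at 0.94, and the 10 visceral endoderm and yolk sac genes had medians of 0.93 and 1.39. The 7 counted genes that drive multiciliated cells had medians of 1.36 and 1.81 in embryos 5 and 6, against at most 0.83 in the other 10. Among them Gmnc was at most 0.431 CPM and Mcidas at most 0.196 CPM in any embryo, while Ccno stood at 5.03 CPM, Trp73 at 2.81 CPM and Foxn4 at 2.07 CPM in embryo 6. The late spermatid genes Prm1, Prm2, Tnp1, Tnp2, Akap4 and Acrv1 were absent from the embryo table, and the other 6 genes of that list had medians of -0.14 and 0.22 in embryos 5 and 6. The 4 airway genes counted summed to at most 0.991 CPM, and the maternal tract list summed to 10.2 and 7.95 CPM in embryos 5 and 6 against 15.9 to 54.9 CPM in Zmym2+/+ embryos. In each of these lists 0 genes were called, and the part of developmental stage or of tissue share in the motile cilia values was not tested.

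**Figure D4:**
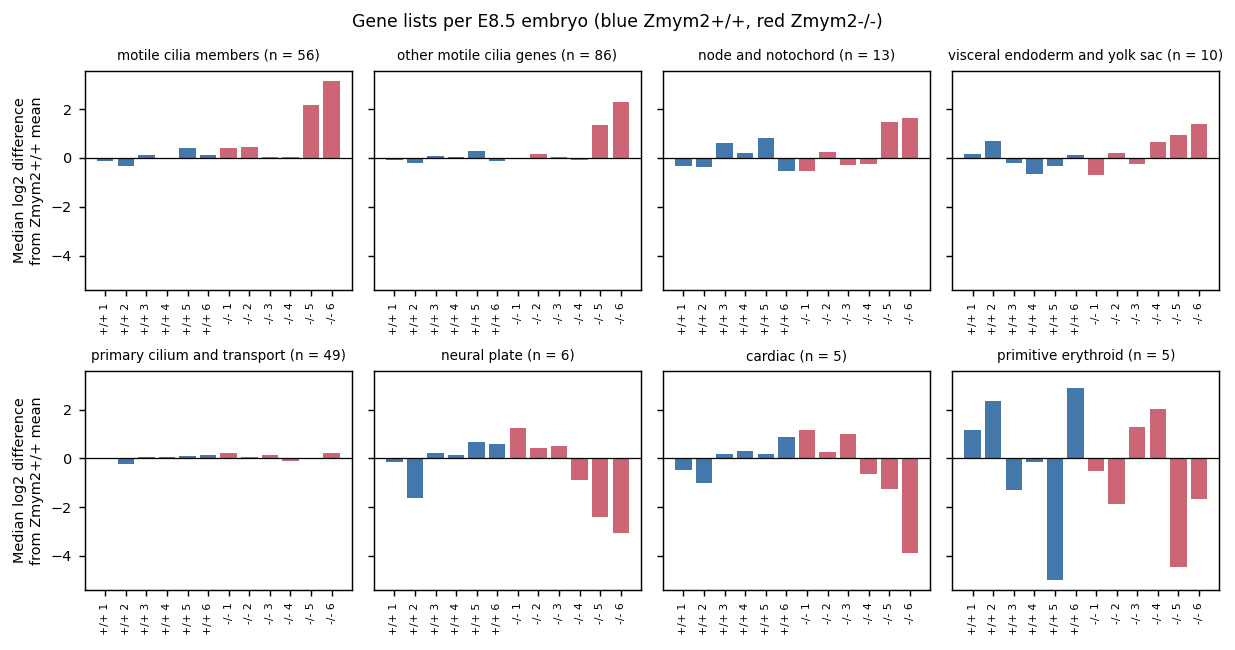
Median log2 difference from the Zmym2+/+ mean (vertical axis, bars from 0) of the genes of 8 lists in each of the 12 E8.5 embryos, Zmym2+/+ in blue and Zmym2-/- in red. Embryos 5 and 6 are high for the members (2.17 and 3.17), the other motile cilia genes and the node list, near 0 for the primary cilium list, and low for the neural plate and cardiac lists. The erythroid list is low in Zmym2+/+ embryo 5 as well.

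Because both high embryos are female, the genotype difference was also compared between the sexes. All Zmym2-/- males share a letter and a name number that no Zmym2+/+ embryo carries together. In this comparison sex therefore cannot be told apart from that number. The difference of the log2 fold changes, females minus males, had a median of 1.41 over the members, against 0.07 over all genes, and 0 members and 0% of all genes were called in either direction. At an unadjusted p under 0.05 there were 19 members higher and 3 lower, against 12% and 10.3% of all genes, and DESeq2 called 13 members higher and 1 lower, against 5.86% and 5.51% of all genes. The median became -0.67 without embryos 5 and 6. That fit leaves embryo 4, with the letter H, as the only Zmym2-/- female, so the value rests on it and cannot be told apart from the letter. For Foxj1 the difference was 4.38 (SE 1.33, adjusted p = 0.0926).

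In mESCs the members did not move as a block. Of the 45 counted, 11 were called higher and 3 lower in Zmym2-/- lines, where 10.3% of all genes were called higher and 8.94% lower, and the median log2 fold change was 0.12 against 0.01 over all genes. All 4 libraries are given for the genes that follow, control lines 1 and 2 and then Zmym2-/- lines 1 and 2. Zmym2-/- lines lay above both control lines for 17 members and below them for 15, against 30.8% and 29.2% of all genes.

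Foxj1 was called lower in Zmym2-/- mESCs, at 9.26 and 9.80 CPM in controls and 3.14 and 3.49 CPM in Zmym2-/- (log2 fold change -1.52, SE 0.19, adjusted p = 0.000114). Rfx2 lay at 37.3, 33.9, 25.7 and 31.0 CPM (-0.33, SE 0.12, adjusted p = 0.0832). Rfx3 lay at 3.66, 4.04, 4.19 and 3.96 CPM (0.08, SE 0.22, adjusted p = 0.840). In the same lines dynein heavy chain genes were called in both directions, as given next.

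Dynein heavy chain genes made up 6 of the 11 genes called higher, but the inner arm class did not rise as a whole. The 8 inner arm genes counted had a median log2 fold change of -0.55, with 3 positive and 5 negative. The 5 outer arm genes counted had a median of 0.83, with 4 positive and 1 negative. Dnah6, an inner arm heavy chain (chr6:73017606-73221651), went from 0.0842 and 0.192 CPM to 3.84 and 6.28 CPM (5.22, SE 0.43, adjusted p = 4.45e-06). Dnah12 went from 0.168 and 0.467 CPM to 6.49 and 4.76 CPM (4.20, SE 0.39, adjusted p = 1.02e-05). These were the 2 steepest rises among the members, from controls close to 0. Dnah7a, in the same class, was at 0.316, 0.330, 1.22 and 1.58 CPM (2.11, SE 0.41, adjusted p = 0.00298), while its copy Dnah7b was at 0.231, 0.165, 0.175 and 0.0309 CPM and was not called. Of the outer arm genes, Dnah5 was at 0.0631, 0.110, 0.291 and 0.618 CPM (2.38, SE 0.76, adjusted p = 0.0448). Dnah11 was at 0.295, 0.165, 0.931 and 0.618 CPM (1.71, SE 0.53, adjusted p = 0.0394), and it shares 642 exonic bases with Cdca7l on the other strand. Dnah8 rose from the highest level of the 6, at 31.3, 23.8, 42.7 and 55.4 CPM (0.83, SE 0.15, adjusted p = 0.00169). Going the other way, Dnah2 was at 4.29, 4.12, 1.95 and 2.78 CPM (-0.83, SE 0.25, adjusted p = 0.0351). DESeq2 did not call Dnah5, Dnah11 or Dnah2. The call of Dnah5 was also lost without control line 1, control line 2 or Zmym2-/- line 2 (adjusted p of 0.180, 0.0807 and 0.249), that of Dnah11 without control line 2 or Zmym2-/- line 1 (0.214 and 0.173), and that of Dnah2 without control line 1, control line 2 or Zmym2-/- line 1 (0.136, 0.107 and 0.121).

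Beyond the arms, the radial spoke genes Iqub and Rsph4a were called higher in mESCs. Iqub was at 0.231, 0.137, 1.05 and 1.08 CPM (2.48, SE 0.49, adjusted p = 0.00326). Rsph4a was at 0.337, 0.302, 0.989 and 1.42 CPM (1.90, SE 0.43, adjusted p = 0.00801). In the central pair the calls went both ways. Hydin was at 1.24, 1.26, 2.68 and 6.24 CPM (1.83, SE 0.36, adjusted p = 0.00318). Spag16 was at 0.884, 1.21, 2.42 and 2.72 CPM (1.3, SE 0.31, adjusted p = 0.00945), a call that was lost without control line 1 (1.09, adjusted p = 0.0839). Cfap54 was called lower, at 0.526, 0.851, 0.0582 and 0.0618 CPM (-3.44, SE 0.70, adjusted p = 0.00397). Ak7, an adenylate kinase of cilia and sperm tails, was at 3.58, 2.75, 7.77 and 8.87 CPM (1.39, SE 0.21, adjusted p = 0.000509).

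In the 4 remaining classes with counted genes, 0 members were called in mESCs. The smallest p of each class went to Ccdc114 in the docking complex (-0.14, SE 0.12, adjusted p = 0.475), Ccdc40 in the ruler class (0.42, SE 0.15, adjusted p = 0.0719), Tekt2 among the tektins (-0.53, SE 0.25, adjusted p = 0.170) and Dnaaf1 among the assembly factors (0.65, SE 0.49, adjusted p = 0.408). Per length, Mns1 was the highest member in control mESCs (mean 7.08 RPKM), followed by Dnaaf3 (5.97 RPKM), Rfx2 (4.88 RPKM), Ccdc114 (4.24 RPKM) and Foxj1 (3.64 RPKM).

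**Figure D5:**
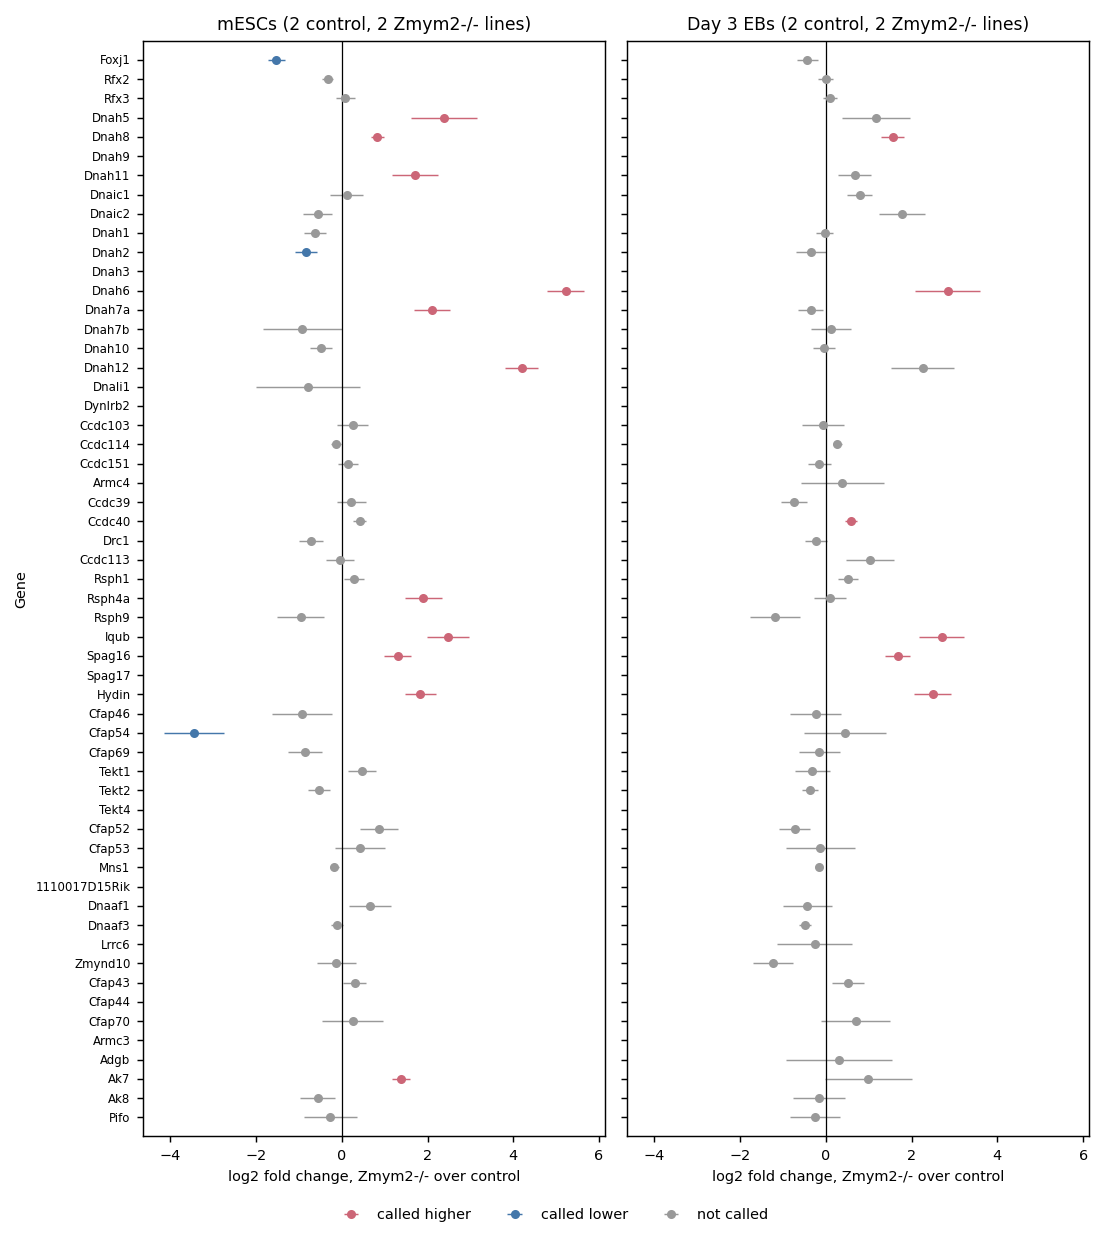
Log2 fold change of each member (horizontal axis, bars 1 SE either side) between 2 Zmym2-/- and 2 control lines in mESCs (left) and day 3 EBs (right), coloured by whether the gene was called higher, lower or not called, with a blank where a gene was absent from that table. The left panel holds 11 genes called higher, led by Dnah6 at 5.22, and 3 called lower, and the right panel holds 6 called higher and 0 lower.

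In day 3 EBs, 6 of the 47 members counted were called higher and 0 lower, where 4.62% of all genes were called higher and 2.77% lower. The median log2 fold change was -0.01, against 0.01 over all genes. Zmym2-/- lines lay above both controls for 14 members and below them for 12, against 26.2% and 24.4% of all genes. At an unadjusted p under 0.05, 3 members were lower (8.94% of all genes), and DESeq2 called 0 lower.

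The EB calls again included dynein heavy chains, a spoke gene and central pair genes. Dnah8 was at 3.37 and 1.85 CPM in controls and 6.33 and 9.06 CPM in Zmym2-/- (1.56, SE 0.26, adjusted p = 0.00318). Dnah6 was at 0.0303, 0.0817, 0.354 and 0.519 CPM (2.84, SE 0.76, adjusted p = 0.0416), a call that was lost with any 1 of the 4 libraries left out (adjusted p of 0.0517 to 0.128) and in DESeq2. Iqub was at 0.0910, 0.163, 0.845 and 0.865 CPM (2.7, SE 0.52, adjusted p = 0.00772). For all 3, both Zmym2-/- lines lay above both controls. Hydin was at 0.273, 0.191, 1.06 and 1.59 CPM (2.49, SE 0.44, adjusted p = 0.00447). Spag16 was at 1.46, 0.926, 3.10 and 4.53 CPM (1.67, SE 0.29, adjusted p = 0.00388). Ccdc40, the partner of Ccdc39 in the ruler, was at 18.3, 14.5, 21.7 and 27.9 CPM (0.60, SE 0.14, adjusted p = 0.0196), the smallest change of those called, and it was not called without EB control line 2 (0.43, adjusted p = 0.0552).

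Foxj1 was at 3.31, 3.57, 3.08 and 1.96 CPM in EBs (-0.43, SE 0.24, adjusted p = 0.354), and Rfx2 (-0.01, SE 0.18) and Rfx3 (0.10, SE 0.16) were not called either. Dnah12 was at 0.0607, 0.0817, 0.413 and 0.288 CPM (2.26, SE 0.74, adjusted p = 0.0936). Dnah5 was at 0.273, 0.0272, 0.295 and 0.375 CPM (1.17, SE 0.80, adjusted p = 0.456). All 5 tektins and doublet inner proteins and all 4 assembly factors had negative values, none of them called, with Cfap52 at -0.73 (SE 0.36, adjusted p = 0.290) and Dnaaf3 at -0.49 (SE 0.14, adjusted p = 0.0520) nearest the threshold in their classes. Ccdc114 (0.27, SE 0.11, adjusted p = 0.168) and Cfap43 (0.52, SE 0.37, adjusted p = 0.484) had the smallest p in theirs. Adgb was barely counted, at 0 to 0.109 CPM.

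Members absent from a count table had few or no reads there. In mESCs the 11 absent genes were Dnah9, Dnah3, Dynlrb2, Armc4, Spag17, Tekt4, 1110017D15Rik, Lrrc6, Cfap44, Armc3 and Adgb, whose deposited RPKM was at most 0.069 in any line. In EBs the 9 absent genes were Dnah9, Dnah3, Dnali1, Dynlrb2, Spag17, Tekt4, 1110017D15Rik, Cfap44 and Armc3, at 0.106 RPKM or less. Of these, 8 were absent at both stages, and each of the 8 was counted in embryos, where Dnah9 was among the members whose genotypes did not overlap.

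Compared across the 3 settings, Dnah8, Dnah6, Iqub, Spag16 and Hydin were called higher in both mESCs and EBs (2.92% of the 18926 genes counted at both stages), and Iqub in embryos as well (0.195% of the 17426 genes counted in all 3). They are 5 of the 11 called in mESCs and 5 of the 6 called in EBs, and both stages were V6.5 lines. The same line numbers name the libraries of both stages, but the labels do not say whether they are the same clones. Of the 44 members counted in all 3, 16 had a positive log2 fold change in each, against 17.6% of all genes counted in all 3. The EB and mESC effects of Zmym2 loss were compared in a joint fit as the EB minus the mESC log2 fold change. Dnah7a was called lower and 0 members were called higher, where 2.18% of 18926 genes were called lower and 3.07% higher. For Dnah7a the difference was -2.46 (SE 0.47, adjusted p = 0.0109), since Zmym2-/- lines were higher in mESCs and lay at 1.18 and 1.36 CPM against 1.37 and 1.85 CPM in EB controls. That call was lost without EB control line 2 (adjusted p = 0.0589). For Foxj1 the difference was 1.09 (SE 0.31, adjusted p = 0.0597). The joint fit did not pair libraries by line number. With the line as a block, 4 members were called higher (Foxj1, Dnah8, Dnaic2 and Cfap54) and Dnah7a lower.

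From mESCs to EBs in the control lines alone, 3 members rose and 18 fell, where 23% of all genes rose and 23.6% fell, and the median was -0.57 against -0.0015 over all genes. Foxj1 fell by 1.52 on the log2 scale (SE 0.21, adjusted p = 6.80e-05), Rfx2 by 2.99 (SE 0.13, adjusted p = 3.51e-09), Dnah8 by 3.46 (SE 0.26, adjusted p = 2.93e-07) and Ak7 by 5.45 (SE 0.48, adjusted p = 1.33e-06). The 3 that rose were Rfx3 (0.63, SE 0.18, adjusted p = 0.00957), Dnah11 (1.96, SE 0.51, adjusted p = 0.00674) and Dnah7a (2.26, SE 0.35, adjusted p = 0.000183). The call of Rfx3 was lost without mESC control line 1 or EB control line 2 (adjusted p of 0.0669 and 0.113), and that of Dnah11 without mESC control line 2 (adjusted p = 0.0563). Libraries were not paired by line number here either, and with the line as a block 3 members rose and 20 fell. The control libraries of this comparison also enter the mESC and EB comparisons.

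By annotation, 20 members share exonic bases with a gene on the opposite strand and 3 with a gene on the same strand. Whether the counting used strand is not given in the sources used here, so for those genes the reads of both partners cannot be told apart. Among genes discussed above this touches Mns1, Dnah3 (1506 bases with Lyrm1), Dnah11, Ccdc39 (1256 bases with Ttc14) and Dnaaf1 (584 bases with Taf1c), and, with shorter overlaps, Dnah2, Dnah6, Dnah8, Dnah9, Ccdc114 and Hydin. Iqub, Dnah12 and Adgb have no such partner.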

How the data were processed

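The 56 genes and every other list were chosen with earlier results of these data known. Per the labels and the submitters' processing notes, the authors made stranded mRNA libraries (NEB kit), trimmed reads with Trimmomatic 0.34, aligned them to GRCm38 with STAR 2.7.8a, marked them with Picard 2.9.0, and deposited HTSeq raw counts per gene, of which no gene has under 10 counts. The strand setting and annotation of the counting are not given in the sources used here. The deposited normalized columns are a score (rounded raw counts after division by 1 library factor) that was not tested. The deposited RPKM values came from StringTie 1.3.5 and were used for levels per length and for 1 alternative.

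Raw counts were tested in edgeR 4.0.16 (R 4.3.3) with TMM scaling, the quasi-likelihood test, at least 10 summed counts, and Benjamini-Hochberg adjustment over all genes of a table at 0.05. The 3 stages were fitted separately, with genotype alone. Joint fits of mESCs and EBs gave the stage difference and the day 3 against day 0 change in controls, and a fit with sex and genotype gave the sex difference. The SE is the absolute log2 fold change divided by the root of F. Log values per embryo used a prior count of 2. Alternatives were DESeq2 1.42.0, its size factors, edgeR's filterByExpr, limma 3.58.1 on log2(RPKM + 0.1), blocks by replicate number, embryo covariates and subsets, and libraries left out. The code was tested on simulated data. Positions come from GENCODE M21 and promoters from RefSeq.

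Values per sample were given for the 3 regulators, every called member, the member with the smallest p of each class, and the 7 members the study lists; for the stage, sex and day comparisons only regulators and called members were named. Rsph4a, Cfap52, Drc1, Dnah8, Dnah2, Dnah3, Spag16, Hydin, Mns1 and other members named in embryos beyond this rule were chosen after their values were seen. Intervals cover counting error only, and p-values of the 2-line comparisons measure the spread between clones.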

Additional observations from a re-analysis of the deposited data

Results flagged for a closer look

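In the 6 Zmym2-/- embryos, Dixon's ratio (the gap from the highest or lowest value to its neighbour, divided by the whole range) passed its 95% critical value for 7 of the members given by embryo, each time because embryo 6 stood far above the rest. The ratio was 0.895 for Foxj1 (82.5 CPM against 9.81 CPM in the next embryo), 0.864 for Ccdc114, 0.774 for Cfap53, 0.667 for Lrrc6, 0.666 for Adgb, 0.645 for 1110017D15Rik and 0.628 for Ccdc113. Over the 30 groups tested, chance gives such a ratio in about 1 of 20, and the members of 1 embryo are not independent of each other.

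Dnah7a had an effect of Zmym2 loss that differed between day 3 EBs and mESCs by a test of the difference itself, at -2.46 on the log2 scale (SE 0.47, edgeR adjusted p = 0.0109). Its near-identical copy Dnah7b makes the assignment of its reads uncertain.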

How the results depend on the processing

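In embryos, the number of members called higher was 1 as reported, 17 with DESeq2 (Foxj1, Dnah8, Dnah9, Dnah2, Dnah12, Iqub and Adgb among them), and 0 with limma on RPKM, in the 7 embryos that share a name number across genotypes, in H or J embryos alone and in males or females alone. It ranged from 0 (without Zmym2+/+ embryo 3 or 4) to 2 (without Zmym2+/+ embryo 1 or 5 or Zmym2-/- embryo 3 or 4, adding Dnah8, Adgb or Dnah9 to Iqub) with 1 embryo left out. In males alone 1 member, Dnaaf1, was called lower. The median log2 fold change was 0.44 in males and 0.23 without Zmym2-/- embryos 5 and 6. Signs turned for Rfx3 in H embryos (-0.20) and in females (-0.27), for 1110017D15Rik in males (-0.0722) and without embryos 5 and 6 (-0.026), and for Lrrc6 without those embryos (-0.24). In mESCs, limma on RPKM called 3 members higher and 1 lower, and leaving out 1 library gave 2 to 6 called lower, the 6 without Zmym2-/- line 2, and a median of -0.00016 (without Zmym2-/- line 2) to 0.22. In EBs, limma on RPKM called 0 higher, the median ranged from 0.044 to 0.15 with 1 library left out, Rfx2 became 0.0026 with limma and ranged from -0.10 to 0.077 with 1 library left out, Rfx3 from -0.030 to 0.25, and Adgb became -0.60 without EB control 1.

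For the stage difference, DESeq2 called 2 members higher (Foxj1 and Dnaic2). With 1 library left out 0 to 1 members were called higher and 0 to 1 lower, the 0 lower without EB control 2, the median ranged from 0.038 to 0.38 and Rfx3 from -0.093 to 0.17, and Rfx3 was -0.0083 with edgeR's filter. For the sex difference, DESeq2 called 13 members higher and 1 lower, and leaving out 1 embryo gave 0 to 7 called higher, the 7 without Zmym2-/- embryo 4. Without embryos 5 and 6, which leaves embryo 4 as the only Zmym2-/- female, the median was -0.67 and Rfx2 0.035. Rfx2 ranged from -0.23 to 0.22 with 1 embryo left out. The day 3 against day 0 median ranged from -0.72 to -0.55.

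Replicate numbers do not pair the samples: the correlations of deviations between same-numbered samples were -0.28 to 0.30 in embryos, 0.00074 in mESCs and 0.0050 in EBs, and no embryo correlated best with its own number. With the replicate number as a block, 1 member was called higher in embryos, 11 higher and 3 lower in mESCs, and 7 higher and 1 lower (Dnaaf3) in EBs. For the stage difference the block by line gave 4 higher (Foxj1, Dnah8, Dnaic2 and Cfap54), and for the sex difference the block gave 2 higher and 1 lower, with Rfx2 at 0.035. The cause of these changes was not tested, except that subsets hold fewer embryos. The control mean was under 1 CPM for 36 of 56 members in embryos, 21 of 45 in mESCs and 30 of 47 in EBs.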

Other observations

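Among the genes of multiciliated cell formation, Ccno, a cyclin of centriole amplification, was called higher in Zmym2-/- mESCs and EBs. It lay at 2.59 and 1.68 CPM in control mESCs and 20.5 and 16.7 CPM in Zmym2-/- mESCs (log2 fold change 3.11, SE 0.21, edgeR adjusted p = 1.07e-06). In EBs it lay at 7.86 and 7.84 CPM in controls and 12.6 and 12.2 CPM in Zmym2-/- (0.66, SE 0.12, adjusted p = 0.00571). Of the 101 further motile cilia genes, 75 were counted in mESCs, with 6 called higher and 3 lower (10.3% and 8.94% of all genes), and 72 in EBs, with 3 called higher and 0 lower (4.62% and 2.77% of all genes).

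The 10 decidua and uterine natural killer cell genes followed the letter in the sample name in all but 1 embryo: their median log2 difference was 0.69 to 2.53 in the 6 H embryos, 0.47 in Zmym2+/+ embryo 3 and -5.26 to -4.04 in the other 5 J embryos. Embryo 5 carried this signal (2.53) and embryo 6 did not (-4.21), and both were high for the members.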
